A study of Papio anubis with 767 samples.

Results

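The retinal pigment epithelium of the baboon was compared with the retina of the same animals, and its libraries of ZT0-10 were then compared with those of ZT12-22. Its members are the 12 libraries labelled Retinal pigment epithelium, set against the 12 labelled Retina, out of 767 libraries of 64 tissues. The labels describe 12 male Papio anubis hamadryas of 5 to 6 years, kept in 12 h of light and 12 h of dark, fed at 9:00 and 15:00 h, and killed every 2 h from ZT0 (lights on) to ZT22, 1 animal per time. Animals received a lethal dose of pentobarbital and were perfused with cold Ame's solution, the eyes were kept on ice, and at night the head was covered and the eyes were dissected in the dark with infrared viewers. Neither group carried a mutation or a treatment by the labels, and every animal gave both tissues. PolyA RNA was read with a stranded kit, and the authors deposited FPKM values, that is reads scaled to gene length and to library size. Since each time is a single animal, time of day and animal cannot be told apart anywhere below, and p-values measure the spread between these 12 animals.

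The pigment epithelium is a single layer of pigmented cells between the photoreceptors and the choroid, the vessel layer that feeds the outer retina. It turns all-trans retinol back into 11-cis retinal for the photoreceptors (the visual cycle), swallows the outer segment tips that rods and cones shed each day, moves water, ions, glucose and lactate between retina and blood, and absorbs stray light with melanin. Shedding and uptake of outer segments follow the light and dark cycle in mammals, which is why this layer is often studied by time of day.

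The libraries carried their labels' markers. LRAT, the enzyme that esterifies retinol, was at 106 to 506 FPKM in the pigment epithelium (median 243), against 0.169 to 1.47 FPKM in the retina (median 0.430). RGR, a retinal-binding opsin of this layer and of Müller cells, was at 219 to 754 FPKM in the pigment epithelium (median 457), against 2.89 to 9.07 FPKM in the retina (median 4.64). Neither marker overlapped between the tissues, and in each of the 12 animals both were higher in the pigment epithelium. The latter held for 36.3% of all genes tested. The log2 difference, pigment epithelium minus retina, taken on log2(FPKM + 0.5) and given with its standard error, was 8.04 ± 0.20 for LRAT and 6.42 ± 0.21 for RGR (limma, adjusted p = 1.99e-13 and 2.69e-12). The retina libraries held the genes of its rods, such as the transducin subunit GNGT1 at 5922 to 11139 FPKM. In bulk tissue, fewer cells of a type and less RNA per cell cannot be told apart, here and below.

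**Figure D1:**
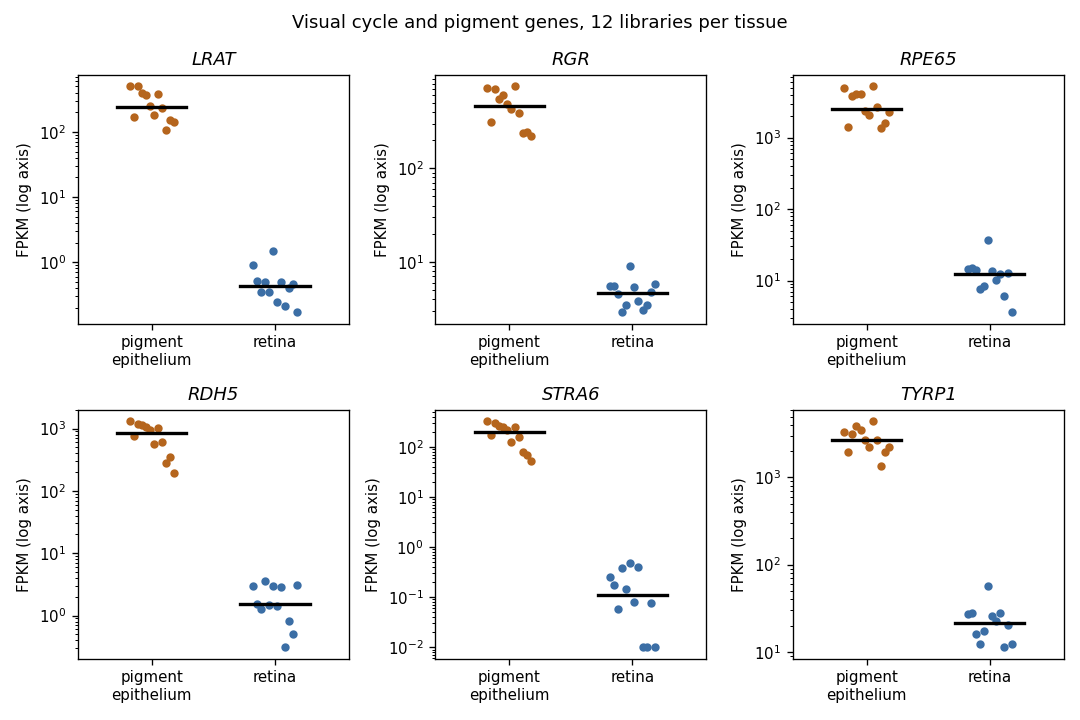
FPKM on a log axis of 6 genes of the visual cycle and of pigment in the 12 pigment epithelium libraries (left, brown) and the 12 retina libraries (right, blue); the points of a tissue run from ZT0 to ZT22, the black bar is the median, and a value of 0 is drawn at 0.01. None of these 6 genes overlaps between the tissues: LRAT lies at 106 to 506 FPKM in the pigment epithelium, against 0.169 to 1.47 FPKM in the retina. The share of all genes without overlap was not counted.

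The pigment epithelium libraries also held photoreceptor transcripts, in very unequal amounts. SAG, the rod arrestin, was at 42.8 to 2795 FPKM in the pigment epithelium (median 263), against 1336 to 4152 FPKM in the retina (median 2226). In the animals of ZT12 and ZT18 SAG was at 1900.5 and 2795 FPKM in the pigment epithelium, against 1336 and 2146 FPKM in their own retina, while LRAT of the same animals was at 182 and 106 FPKM in the pigment epithelium, against 0.240 and 0.402 FPKM in the retina. These are the libraries with the most rod transcripts, and results that rest on them are given with and without both. Depth and a pattern shared by many libraries also touch what follows. Reads assigned to genes were 6.36 to 13.0 M per library in the pigment epithelium (median 9.97 M), against 3.84 to 12.6 M in the retina (median 5.90 M). In the other 62 tissues each library was set against the mean of its own tissue. The pattern along which these deviations varied most is called the library axis here (first principal component, 9970 genes, 30.7% of their variance). Scores of single libraries are likewise taken against their own tissue's mean. Tissue means were placed on the same gene weights, relative to the mean of the 62 tissues. The pigment epithelium lay at 0.209, rank 26 of 64 tissues, and the retina at -2.42, rank 63. Genes far along this axis include common ones: the mean of ACTB, a cytoskeletal actin, was 725 FPKM in the pigment epithelium and 40.4 FPKM in the retina, with a median of 441 FPKM over the 64 tissues (a gene chosen after its values were seen).

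Most genes differed between the tissues. Of 13405 genes whose mean reached 1 FPKM, 4667 (34.8%) were higher and 3018 (22.5%) lower in the pigment epithelium by at least 2-fold (limma paired by animal, Benjamini-Hochberg adjusted p under 0.05), which is 57.3% in either direction. By the adjusted p alone 11643 differed (86.9%, with 46.7% higher and 40.2% lower). Of all tested, 4865 (36.3%) were above the retina in each of the 12 animals. The share of all genes without overlap between the tissues, in either direction, was not counted. The median log2 difference of all tested genes was 0.14. Counts of a gene list below are to be read against these shares, and as descriptions, since the lists were chosen with earlier results of these data known. A gene near 0 in the retina reached the mean of 1 FPKM only through the pigment epithelium, so its call as higher was largely set by the filter. Differences followed the genes' weights on the library axis with a Pearson r of 0.60 across 9970 genes, a description of genes that share 24 libraries; of the 997 genes with the highest weights 86.7% were called higher, and of the 997 with the lowest 6.22%. Scaling the libraries by quantiles moved the split to 3649 higher and 4048 lower genes and the median of all genes to -0.17. The part of the axis in single differences was not tested.

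All 12 visual cycle genes were higher in the pigment epithelium, with a median log2 difference of 6.90, against 0.14 for all genes, and 11 of 12 with quantile scaling. RPE65, the isomerase that makes 11-cis retinol, was at 1361 to 5260.1 FPKM in the pigment epithelium (median 2503), against 3.58 to 37.0 FPKM in the retina (median 12.5). RDH5, which oxidizes 11-cis retinol, was at 193 to 1324 FPKM in the pigment epithelium (median 850.2), against 0.310 to 3.60 FPKM in the retina (median 1.50), a log2 difference of 8.31 ± 0.25 (adjusted p = 1.12e-12). Neither gene overlapped between the tissues. The retinol carriers followed: the membrane receptor STRA6 was at 51.9 to 334 FPKM in the pigment epithelium (median 197) and listed at 0 in 3 of the 12 retina libraries, with 0.490 FPKM as the highest retina value. TTR, which carries thyroxine and the retinol complex, differed by 8.22. RLBP1, the 11-cis retinal binding protein that Müller glia also make, had the smaller difference of 3.03 ± 0.15, from 584 to 1978 FPKM in the pigment epithelium (median 1170.5), against 68.5 to 203 FPKM in the retina (median 130.0). The least different were the more widely expressed dehydrogenases RDH10 (1.40) and RDH11 (2.25) and the plasma retinol carrier RBP4 (1.11), which was at 1.43 to 10.5 FPKM in the pigment epithelium (median 4.82), against 0.772 to 3.66 FPKM in the retina (median 1.75). With quantile scaling RBP4 came to 0.40 and was not called (adjusted p = 0.195).

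Of 11 melanin genes tested 10 were higher (34.8% of all genes), with a median of 6.36. PMEL, the fibril protein of the melanosome, was at 459 to 2134 FPKM in the pigment epithelium (median 1399), against 0.142 to 2.64 FPKM in the retina (median 0.547), and had the second largest difference of all named genes (9.96 ± 0.19, adjusted p = 8.88e-14). MLANA, another melanosome protein, differed by 9.27, the rate-limiting enzyme TYR by 7.36, TYRP1 by 6.95 and DCT by 6.39. RAB38, a small GTPase of melanosome transport, had a difference of 0.86 ± 0.17 and stayed under the 2-fold limit. With quantile scaling 9 of the 11 were higher, and TPCN2, a channel of the melanosome, came to 0.36 (adjusted p = 0.0743), against 1.31. Choroidal melanocytes use the same genes, so these values do not separate them from the epithelium.

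The lineage regulators did not share a direction. MITF, the master regulator of pigment genes, was at 13.1 to 42.3 FPKM in the pigment epithelium (median 25.4), against 1.30 to 3.25 FPKM in the retina (median 2.06), and higher with OTX1 (3.01) and SIX3 (1.25). OTX2, which photoreceptors and bipolar cells use as well, was lower, at 68.1 to 176 FPKM in the pigment epithelium (median 116), against 161 to 306 FPKM in the retina (median 233), a log2 difference of -1.06 ± 0.15 (adjusted p = 1.12e-05) that came to -0.98, under 2-fold, without ZT20. PAX6 was lower too (-1.16). The other 4 of the 9 tested were not called, among them LHX2 (0.41), SOX9 (-0.21) and CRX (-0.19). The list's median was -0.19.

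Transport genes were mostly higher: 15 of 19 tested, with 1 lower and a median of 3.86. BEST1, the basolateral chloride channel bestrophin, was at 159 to 581 FPKM in the pigment epithelium (median 322), against 0.961 to 5.30 FPKM in the retina (median 2.10) (6.93 ± 0.16, adjusted p = 1.04e-13). The potassium channel KCNJ13 was at 241 to 693 FPKM in the pigment epithelium (median 431), against 8.19 to 29.4 FPKM in the retina (median 18.2). No library of one tissue reached the other for either channel. SLC16A8, the basolateral lactate exporter MCT3, was at 1.61 to 30.6 FPKM in the pigment epithelium (median 10.8) and listed at 0 in 11 of the 12 retina libraries. Its chaperone BSG differed by 2.74, the other lactate carrier SLC16A3 by 3.73, the glucose carrier SLC2A1 by 3.45, and the anion exchanger SLC4A2 by 5.07. The sodium pump subunit gene ATP1B1 (0.20 ± 0.11) and the lactate carrier SLC16A1 (-0.10 ± 0.19) differed by less than 2-fold. ABCA4, the retinoid flippase of photoreceptor discs, was lower, at 32.4 to 277 FPKM in the pigment epithelium (median 67.6), against 136 to 319.8 FPKM in the retina (median 187) (-1.24 ± 0.22, adjusted p = 9.94e-05). Of 9 junction and cytoskeleton genes 6 were higher and 1 lower (median 3.89): the claudins CLDN10 and CLDN19 differed by 4.67 and 4.66, the P-cadherin gene CDH3 by 5.17 and the E-cadherin gene CDH1 by 3.89, while the N-cadherin gene CDH2 differed by -2.19.

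The genes of outer segment uptake stood less apart: 10 of 15 were higher and 1 lower, with a median of 1.08. The integrin subunits of outer segment binding were the clearest, ITGAV at 82.7 to 265 FPKM in the pigment epithelium (median 159), against 16.2 to 43.0 FPKM in the retina (median 31.0), and ITGB5 with a log2 difference of 2.72 ± 0.13. The engulfment receptor MERTK was at 8.87 to 20.4 FPKM in the pigment epithelium (median 13.0), against 2.39 to 11.0 FPKM in the retina (median 6.09), higher in 11 of 12 animals and by 1.19 ± 0.24 (adjusted p = 2.71e-04). Its bridging ligands GAS6 and PROS1 differed by 2.96 and 1.02, whereas the integrin ligand MFGE8 stayed under 2-fold (0.50 ± 0.23, adjusted p = 0.0497). PTK2, the focal adhesion kinase, was at 25.4 to 29.6 FPKM in the pigment epithelium (median 27.5), against 24.5 to 33.3 FPKM in the retina (median 27.9), with a difference of -0.02 ± 0.07. MERTK came to 0.94, under 2-fold, with quantile scaling. MREG, a melanosome and phagosome transport factor, was lower (-1.49). With quantile scaling 7 of the 15 were called higher, and 8 without ZT12 and ZT18.

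Secreted factors were higher for 14 of 17 genes and lower for none, with a median of 4.16. TIMP3, the metalloproteinase inhibitor of Bruch's membrane, was at 197 to 1090.5 FPKM in the pigment epithelium (median 531), against 1.16 to 8.38 FPKM in the retina (median 3.46) (7.14 ± 0.16, adjusted p = 1.04e-13). SERPINF1, which encodes the anti-angiogenic factor PEDF, differed by 4.16, the growth factors BMP4 and BMP7 by 6.26 and 4.06, the matrix protein EFEMP1 by 5.27 and the prostaglandin D synthase PTGDS by 5.17. VEGFA, the vessel growth factor, was at 30.3 to 74.5 FPKM in the pigment epithelium (median 58.6), against 36.6 to 57.8 FPKM in the retina (median 41.2), and with 0.30 ± 0.11 it stayed under 2-fold, as did FGF2 (0.58) and the WNT antagonist FRZB (-0.31). Of 11 complement genes 9 were higher and 1 lower (median 2.03). C3, the central component, was at 7.14 to 29.1 FPKM in the pigment epithelium (median 14.2), against 0.443 to 2.20 FPKM in the retina (median 0.841). The membrane regulator CD46 did not differ by 2-fold (-0.09 ± 0.16), and VTN, vitronectin, was lower (-2.14 ± 0.48, adjusted p = 7.01e-04). VTN exceeded its retinal value only at ZT12 and ZT18, with 40.9 and 70.5 FPKM in the pigment epithelium, against 15.5 and 24.4 FPKM in the retina, the same 2 animals as for SAG.

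**Figure D2:**
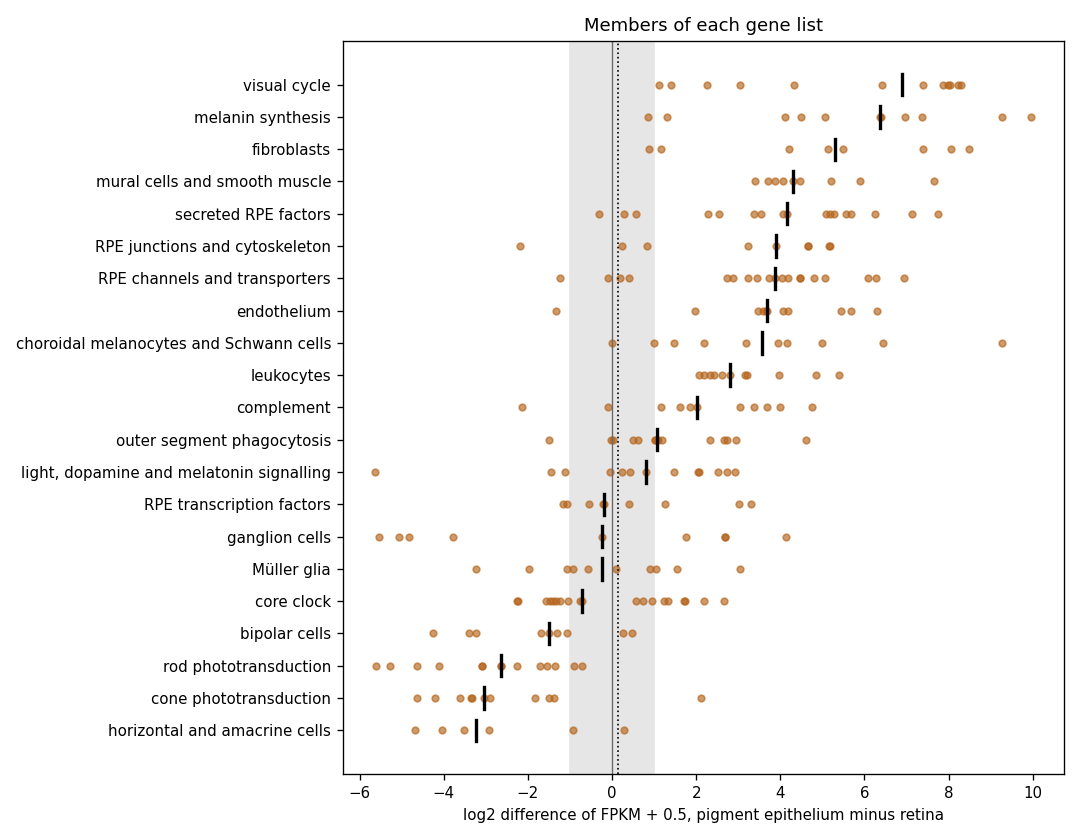
The log2 difference of FPKM + 0.5, pigment epithelium minus retina, of each tested member (points) of 21 gene lists; the black bar is the list's median, the grey band marks differences under 2-fold, and the dotted line is the median of all tested genes (0.14). Visual cycle and melanin genes lie furthest to the right, with medians of 6.90 and 6.36, and rod, cone and interneuron genes to the left.

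Most genes of retinal neurons were lower, but not equally so. Of 14 rod genes 12 were lower and none higher (22.5% of all genes were lower), with a median of -2.65, and without ZT12 and ZT18 all 14 were lower (median -3.37). Of 11 cone genes 10 were lower (median -3.04), as were 7 of 9 bipolar cell genes (median -1.50) and 4 of 6 genes of horizontal and amacrine cells (median -3.22). GNGT1, the rod transducin gamma subunit, was at 26.5 to 1359 FPKM in the pigment epithelium (median 184), against 5922 to 11139 FPKM in the retina (median 9268), without overlap (-5.61 ± 0.45, adjusted p = 1.86e-08). The rod cyclic nucleotide channel genes CNGA1 and CNGB1 differed by -5.27 and -4.63, the rod transducin alpha subunit GNAT1 by -1.71 ± 0.61 (adjusted p = 0.0165) and the phosphodiesterase subunit PDE6G by -1.35 ± 0.59 (adjusted p = 0.0436), and the rod transcription factor NRL (-0.91 ± 0.60) and the disc rim gene ROM1 (-0.72 ± 0.58) were not called. The call of PDE6G was lost when any 1 of 9 animals was left out (adjusted p = 0.0580 to 0.0982).

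Set against the retina of the same animal, the median rod gene of the pigment epithelium reached 1.90% at ZT10, 2.36% at ZT0, 6.34% at ZT16, 7.59% at ZT22, 7.66% at ZT6 and 9.87% at ZT20. It reached 14% at ZT8, 22.1% at ZT4, 30.1% at ZT14 and 32.0% at ZT2, and exceeded the retina at ZT18 (166%) and ZT12 (217%). In those 2 animals GNGT1 was at 14.3% of the retina at ZT18 and at 8.06% at ZT12. The percentage at ZT12 also rests on a low retina value. The median rod gene of that retina library was at 239 FPKM, the lowest of the retina libraries (median 458 FPKM). In the pigment epithelium it was at 423 FPKM at ZT12 and 587 FPKM at ZT18.

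**Figure D3:**
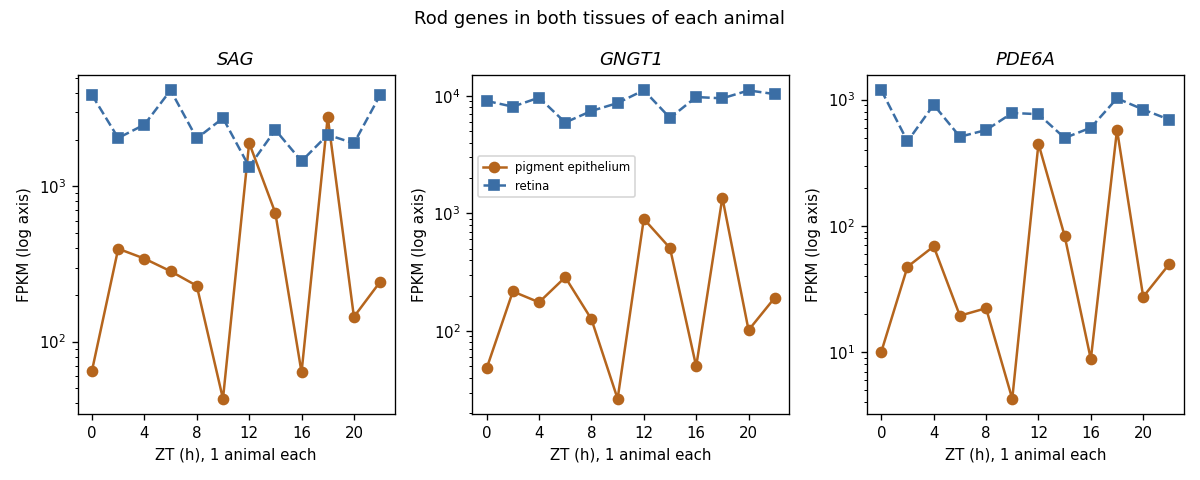
FPKM on a log axis of SAG, GNGT1 and PDE6A by ZT in the pigment epithelium (brown circles) and the retina (blue squares) of each animal, 1 library per point. SAG of the pigment epithelium passes that of the retina at ZT12 and ZT18 (1900.5 and 2795 FPKM, against 1336 and 2146 FPKM in the retina), while GNGT1 and PDE6A stay below it in all 12 animals.

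Other retinal lists were mixed. CNGB3, a cone channel subunit, was the 1 cone gene higher in the pigment epithelium, at 30.4 to 102 FPKM in the pigment epithelium (median 57.9), against 6.11 to 19.1 FPKM in the retina (median 14.8) (2.12 ± 0.21, adjusted p = 1.84e-07), while its partner CNGA3 was lower (-1.82). Of 9 ganglion cell genes the neurofilament genes NEFL (-5.53), NEFM (-5.05) and NEFH (-3.77) and the glutamate transporter SLC17A6 (-4.83) were lower. The 4 that were higher, RBPMS, RBPMS2, THY1 and GAP43, are also known from smooth muscle, fibroblasts or Schwann cells. Of 10 Müller cell genes the glutamate transporter SLC1A3 (-3.23), the water channel AQP4 (-1.96) and SPP1 (-1.08) were lower. GLUL (1.05), VIM (1.55) and RLBP1, which is also in the visual cycle list, were higher; GLUL came under 2-fold without ZT12, ZT16 or ZT18 (0.92 to 1.00) and with quantile scaling (0.54). Of genes of light, dopamine and melatonin signals 6 of 13 were higher and 3 lower (median 0.81, with 34.8% of all genes higher and 22.5% lower). The dopamine receptors DRD1 and DRD2 and the phosphoprotein PDC were lower and DRD4 higher.

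Markers of vessels, connective tissue, nerve sheath and blood cells were higher in the pigment epithelium. Of the genes tested, those higher were 10 of 11 of endothelium (median 3.69), 9 of 9 of mural cells and smooth muscle (4.30), 7 of 8 of fibroblasts (5.31), 8 of 10 of melanocytes and Schwann cells (3.57) and 11 of 11 of leukocytes (2.80). Of rarer types, the 1 erythrocyte gene tested (HBB), the 1 lens gene (CRYGS) and both skeletal muscle genes (TNNT3 and CKM) were higher. In the retina alone 4 endothelial, 5 mural, 4 fibroblast and 5 melanocyte and Schwann cell genes averaged at least 1 FPKM. Of leukocyte, erythrocyte and skeletal muscle genes 0 did. The other tested genes of these lists passed the filter through the pigment epithelium, so their calls as higher were largely set by it. PLVAP, a protein of fenestrated vessels such as those of the choroid, was at 11.8 to 88.9 FPKM in the pigment epithelium (median 36.3), against 0 to 0.365 FPKM in the retina (median 0.122). KDR, a VEGF receptor, was the 1 endothelial gene that was lower, at 12.9 to 60.1 FPKM in the pigment epithelium (median 30.0), against 63.2 to 124 FPKM in the retina (median 80.0) (-1.34 ± 0.20, adjusted p = 1.37e-05). Across the libraries the median endothelial gene was at 10.9 to 56.4 FPKM in the pigment epithelium, against 0.173 to 0.910 FPKM in the retina, and the median leukocyte gene at 2.17 to 10.9 FPKM, against 0 to 0.282 FPKM in the retina. The part of these cells in any difference above was not tested.

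Muscle genes varied widely between pigment epithelium libraries. The median gene of mural cells and smooth muscle was at 11.8 to 238 FPKM, that of melanocytes and Schwann cells at 10.6 to 29.5 FPKM and the median visual cycle gene at 142 to 421 FPKM. ACTA2, smooth muscle actin, was at 62.0 to 2698 FPKM in the pigment epithelium (median 669), the intermediate filament gene DES at 0.758 to 158 FPKM in the pigment epithelium (median 35.4) and CKM, the muscle creatine kinase, at 0.209 to 354 FPKM in the pigment epithelium (median 54.3). These genes were highest at ZT2 and ZT20, where CKM was at 298 and 354 FPKM, and among the lowest at ZT4, ZT14 and ZT18, where it was at 0.209, 6.33 and 1.47 FPKM. RPE65 was at 1415 FPKM at ZT2 and 1597 FPKM at ZT20, in the lower part of its range. Among the markers at 0 in all retina libraries were SOX10, of Schwann cells and melanocytes, COL1A1, a collagen, MS4A1, of B cells, and MIP, of lens fibres. In the pigment epithelium SOX10 was at 3.66 to 40.0 FPKM and COL1A1 at 3.83 to 47.4 FPKM.

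Among all genes with a symbol that averaged at least 10 FPKM in the higher tissue, the largest difference upward was that of IGKC, the constant region of the immunoglobulin kappa chain (10.38 ± 0.46), at 773 to 11119 FPKM in the pigment epithelium (median 2736), against 0.374 to 6.91 FPKM in the retina (median 1.10). It was followed by PMEL, MLANA, the small leucine-rich proteoglycan OGN (8.48), RDH5, TTR, the proteoglycan DCN (8.05), LRAT, the trabecular and Schwann cell protein MYOC (8.03) and STRA6. So visual cycle and melanin genes shared the top 10 with genes known from plasma cells, fibroblasts and Schwann cells. Which cells gave these transcripts was not tested. Downward, the 10 largest were PDC, the photoreceptor phosphoprotein phosducin (-5.62 ± 0.44), GNGT1, NEFL, CNGA1, NEFM, SLC17A6, Y_RNA (a symbol shared by many table entries), RAB41 (-4.76), STMN2 (-4.76) and CPLX4, a complexin of photoreceptor synapses (-4.73).

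Set beside all 64 tissues, 9 of the 12 visual cycle genes had their highest mean level in the pigment epithelium. RPE65 averaged 2992 FPKM there, against 83.3 FPKM in the next tissue, the optic nerve head, and LRAT 284 FPKM, against 1.40 FPKM in the same tissue. RDH5 averaged 784 FPKM, against 44.3 FPKM in the iris. TTR came second, with 1459.6 FPKM, against 2149.9 FPKM in the pineal gland. Of 11 melanin genes none was highest in the pigment epithelium and 8 were second; the iris was the highest for 9, with a PMEL mean of 38942 FPKM, against 1328 FPKM in the pigment epithelium. BEST1 (346 FPKM, against 10.9 FPKM in the pancreas), SLC16A8, SLC6A20 and TRPM3 were highest in the pigment epithelium among 20 transport genes, as were 8 of 17 secreted factors, among them EFEMP1, ENPP2, IGFBP5 and BMP4. The channel gene CNGB3 also had its highest mean there (61.9 FPKM), with the pineal gland next (15.8 FPKM). Of 14 rod genes 9 had their second highest mean in the pigment epithelium, after the retina. These ranks describe means of tissues that sit at different places on the library axis.

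Within the pigment epithelium, most endothelial genes were higher in the 6 libraries of ZT0-10 than in the 6 of ZT12-22, while genes of the epithelium were called at a share near that of all genes. Of 92 genes on 7 epithelial lists 20 were higher (21.7%) and none lower. These lists and the endothelial one were chosen with earlier results of these data known, so their shares are descriptions only. Of 13365 genes tested, 2449 (18.3%) were higher and 339 (2.54%) lower at ZT0-10 (limma, adjusted p under 0.05), 20.9% in all, and 4579 (34.3%) had an unadjusted p under 0.05. Of all tested, 1621 (12.1%) did not overlap between these sets, 1492 of them (11.2%) higher at ZT0-10. The split depended on scaling: median-of-ratios factors over these libraries gave 1749 higher and 1111 lower genes, quantile scaling 1819 and 1158, and voom on the recovered reads 1793 and 1149. Library axis scores were 0.18 to 0.78 at ZT0-10 (mean 0.35, SD 0.22), against -0.96 to 0.02 at ZT12-22 (mean -0.35, SD 0.34, exact two-sided permutation p = 0.00216), so the axis and the time of day cannot be told apart in these 12 libraries. With the score as a covariate 0 genes passed, and 1509 had an unadjusted p under 0.05. Differences followed the genes' axis weights with r = 0.58 across 9970 genes; 61.0% of the 997 genes with the highest weights were called higher, against 0.20% of the 997 with the lowest. Reads assigned averaged 9.35 ± 2.17 M at ZT0-10 and 9.85 ± 1.82 M at ZT12-22 (SD, n = 6 each, exact permutation p = 0.671).

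Of 11 endothelial genes 9 were higher at ZT0-10 (18.3% of all genes), with a median log2 difference of 1.05, against 0.06 for all genes tested. PLVAP was at 38.6 to 88.9 FPKM at ZT0-10 (median 60.6), against 11.8 to 33.9 FPKM at ZT12-22 (median 15.3), and did not overlap between the 2 sets (1.74 ± 0.27, adjusted p = 0.00226). VWF, the von Willebrand factor of endothelial granules, was at 38.8 to 86.0 FPKM at ZT0-10 (median 58.2), against 17.1 to 35.6 FPKM at ZT12-22 (median 21.4) (1.31 ± 0.23, adjusted p = 0.00322). CA4, a carbonic anhydrase of capillaries, differed by 1.47, TIE1 by 1.20 and the transcription factor ERG by 1.05. KDR was at 23.3 to 56.4 FPKM at ZT0-10 (median 30.0), against 12.9 to 60.1 FPKM at ZT12-22 (median 37.6), a difference of 0.04 ± 0.35 that was not called. Without ZT12 and ZT18 7 of the 11 were higher (median 1.04), and with the axis score as covariate none (median 1.43). Of the mural genes PDGFRB and NOTCH3 (1.68) were higher, 2 of 9, of the fibroblast genes COL1A1 and COL1A2, 2 of 8, and of the Schwann and melanocyte genes SOX10, 1 of 10. DCN, a fibroblast gene, was at 483 to 677 FPKM at ZT0-10 (median 613), against 212 to 797 FPKM at ZT12-22 (median 591) (0.19 ± 0.28). The macrophage genes CD14, CSF1R, CD163 and CD68 were the 4 of 11 leukocyte genes that were higher; without ZT12 and ZT18 2 of the list were higher and 1 lower.

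**Figure D4:**
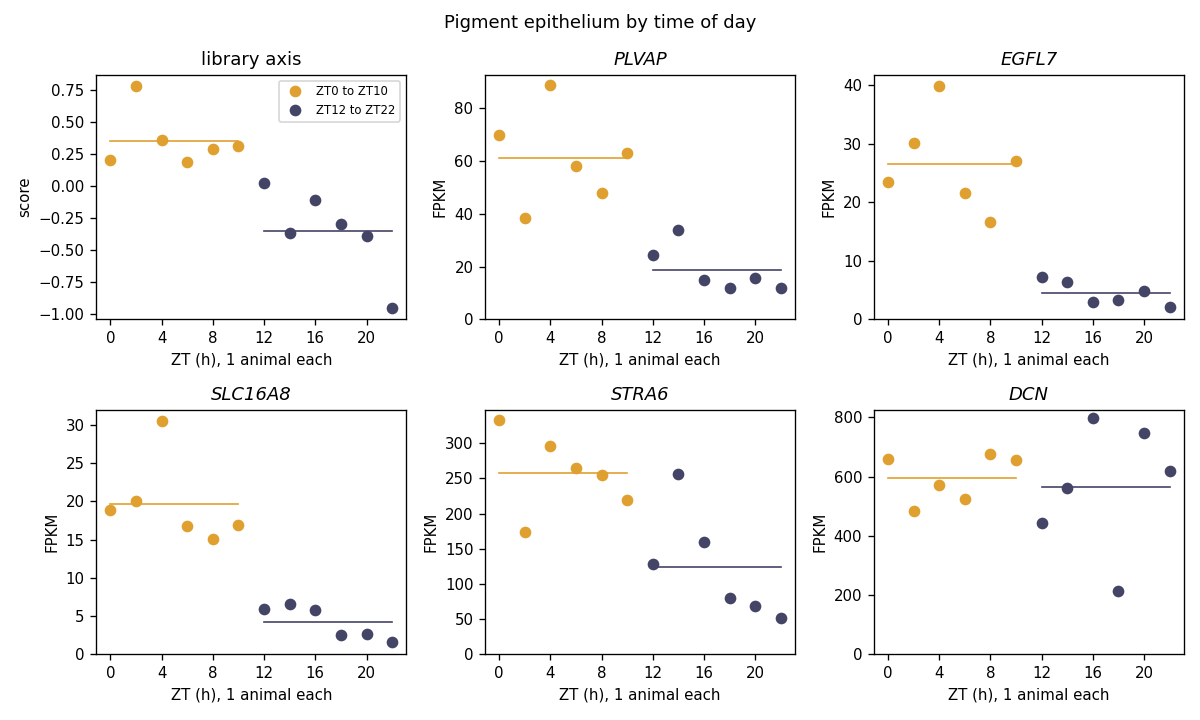
The library axis score (first panel) and the FPKM of 5 genes in the pigment epithelium by ZT, 1 animal per point, with ZT0-10 in light orange, ZT12-22 in dark grey-blue and lines at the mean of each 6. PLVAP, EGFL7 and SLC16A8 do not overlap between the 2 sets, as the axis score does not, whereas STRA6 and DCN do.

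Of the 12 visual cycle genes 5 were higher at ZT0-10 (18.3% of all genes), with a median of 0.77. DHRS3, a retinal reductase, was at 77.5 to 94.6 FPKM at ZT0-10 (median 82.5), against 25.5 to 57.0 FPKM at ZT12-22 (median 35.1), without overlap (1.17 ± 0.18, adjusted p = 0.00210). RDH5 was at 762 to 1324 FPKM at ZT0-10 (median 1094), against 193 to 1021 FPKM at ZT12-22 (median 453) (1.29 ± 0.34, adjusted p = 0.0196), and STRA6 at 174 to 334 FPKM at ZT0-10 (median 260.0), against 51.9 to 256 FPKM at ZT12-22 (median 104) (1.24 ± 0.34, adjusted p = 0.0226). The ZT14 library held the highest late value of both, inside the early range. RBP4 (1.14) was also among the 5. LRAT was at 170.0 to 506 FPKM at ZT0-10 (median 388), against 106 to 383 FPKM at ZT12-22 (median 168), with a difference of 0.90 ± 0.33 that did not pass (adjusted p = 0.0719), and RGR at 309.7 to 715 FPKM at ZT0-10 (median 580.1), against 219 to 754 FPKM at ZT12-22 (median 316) (0.67 ± 0.31, adjusted p = 0.146). RPE65 had 0.48 ± 0.37 (adjusted p = 0.386). Without ZT12 and ZT18 3 of the 12 were higher (median 0.66), and STRA6 was not called (1.20, adjusted p = 0.0552). With the first principal component of these libraries as a covariate neither RDH5 (1.09) nor STRA6 (1.12) was called (limma, adjusted p = 0.0998 and 0.0942).

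Of 19 transport genes 5 were higher at ZT0-10 (median 0.56, with 18.3% of all genes higher): SLC16A8, BSG (1.31), SLC16A3 (1.25), SLC4A2 (1.24) and the chloride channel CLCN2 (0.86). SLC16A8 was at 15.0 to 30.6 FPKM at ZT0-10 (median 17.9), against 1.61 to 6.56 FPKM at ZT12-22 (median 4.22), with no overlap (2.22 ± 0.30, adjusted p = 0.00171). The lactate carrier SLC16A1 had 0.23 ± 0.26 and was not called. Of 9 junction genes 3 were higher (CLDN19, SLC9A3R1 and CDH3), of 11 melanin genes 2 (PMEL and TPCN2), of 17 secreted factors 3 (PTGDS, TIMP3 and ANGPTL4) and of 11 complement genes 2 (CFD and SERPING1). Of 15 uptake genes 2 were higher, the integrin subunit ITGB5 at 114 to 184 FPKM at ZT0-10 (median 140.2), against 54.2 to 110.2 FPKM at ZT12-22 (median 72.6) (0.94 ± 0.19, adjusted p = 0.00474), and the lysosomal membrane protein LAMP1 (0.38 ± 0.08, adjusted p = 0.00509). MERTK (0.17 ± 0.21), GAS6 (0.46 ± 0.33) and MFGE8 (0.37 ± 0.24) were not called. Without ZT12 and ZT18 4 of 19 transport, 1 of 9 junction, 0 of 11 melanin, 3 of 17 secreted factor, 1 of 11 complement and 4 of 15 uptake genes were higher.

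Photoreceptor genes gave no call between ZT0-10 and ZT12-22, 0 of 14 rod and 0 of 11 cone genes by limma, with 0 and 1 at an unadjusted p under 0.05, and the smallest adjusted p among them was 0.140, of GUCA1C. Their medians were -1.16 and -0.98, and that of the rods was 0.08 without ZT12 and ZT18. Of the bipolar genes PRKCA was lower, 1 of 9 (-0.97 ± 0.30, adjusted p = 0.0392), with its highest values of 37.5 and 52.6 FPKM at ZT12 and ZT18; without these 2 animals PRKCA was not called (-0.53, adjusted p = 0.0839). Among genes of light and dopamine signals 3 of 13 were higher at ZT0-10 (18.3% of all genes): the dopamine receptor DRD4 at 7.16 to 13.7 FPKM at ZT0-10 (median 10.4), against 0.455 to 4.71 FPKM at ZT12-22 (median 3.19) (1.85 ± 0.37, adjusted p = 0.00496), the adenosine receptor ADORA2A (1.15) and the immediate early gene JUNB (1.08). None of 9 lineage regulators, 9 ganglion cell genes and 10 Müller cell genes was called, with 2, 0 and 1 at an unadjusted p under 0.05. Without ZT12 and ZT18 1 of 10 lineage regulators and 2 of 9 ganglion cell genes were called higher, and with quantile scaling 1 of 10 Müller cell genes was called lower. Other immediate early genes, FOS (-0.31 ± 0.32) and EGR1 (-0.44 ± 0.35), were not called.

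Among genes averaging at least 5 FPKM, the 10 that gave the smallest p were all higher at ZT0-10 (adjusted p = 0.00160 each). They were the plasminogen activator PLAT (1.32), the hyaluronidase HYAL2 (1.94), HRCT1 (2.30), the endothelial factor EGFL7 (2.48), STARD8 (1.63), IRF2BPL (1.03), the arylsulfatase ARSA (1.37), the scaffold SLC9A3R2 (2.39), the glucocorticoid-induced TSC22D3 (1.09) and IMP3 (0.92). EGFL7 was at 16.7 to 39.9 FPKM at ZT0-10 (median 25.2), against 2.10 to 7.28 FPKM at ZT12-22 (median 4.13).

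In the retina the same contrast gave 0 of 11589 genes by limma, and 2314 (20%) had an unadjusted p under 0.05; voom on the recovered reads also gave 0. Retinal differences followed the genes' axis weights with r = 0.85 across 9970 genes. The median log2 difference was 0.77 for the 997 genes with the highest weights and -0.30 for the 997 with the lowest. Retinal axis scores averaged 0.53 ± 0.87 at ZT0-10 and -0.53 ± 0.99 at ZT12-22 (SD, n = 6 each, exact permutation p = 0.0779), and reads 8.62 ± 2.79 M at ZT0-10 and 5.45 ± 2.29 M at ZT12-22 (exact permutation p = 0.0628). Of the genes with the smallest p, HMGCS1 and MSMO1, enzymes of sterol synthesis, had log2 differences of -0.78 ± 0.13 and -0.67 ± 0.13 (adjusted p = 0.249). Taking the pigment epithelium minus retina difference within each animal, 48 of 13405 genes (0.358%) passed, all with the larger ZT0-10 minus ZT12-22 value in the pigment epithelium, and 1252 (9.34%) had an unadjusted p under 0.05. Of the 48, 47 averaged under 1 FPKM in the retina, where they were not tested, and passed the filter through the pigment epithelium. At such levels a time effect in the retina could not be seen, so for these genes the test restates the effect within the pigment epithelium and does not show that the tissues differ by time of day. Among them were KLF2 (2.43 ± 0.36), EGFL7 (2.45 ± 0.39, with 2.48 within the pigment epithelium), SLC9A3R2 (2.28 ± 0.36), GJA4 (2.27 ± 0.36), HRCT1 (2.19 ± 0.33), SLC16A8 (2.21 ± 0.36) and CFD (1.83 ± 0.28), none above 0.463 FPKM in any retina library. RSRP1 was the 1 called gene that was also tested in the retina, at 37.7 to 82.7 FPKM at ZT0-10 (median 65.9), against 27.9 to 42.9 FPKM at ZT12-22 (median 32.2) in the pigment epithelium, with retina means of 98.3 FPKM at ZT0-10 and 113 FPKM at ZT12-22 (1.12 ± 0.20, adjusted p = 0.0388 by limma, singled out after its values were seen). Without ZT12 and ZT18 none of 13441 genes passed, nor any with the rod level as a covariate or with a pseudocount of 0.1, and leaving out single animals gave 0 to 51 calls, 0 for 10 of the 12.

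A 24 h cosine fitted 72 of 13365 genes in the pigment epithelium (0.539%, limma moderated F, adjusted p under 0.05), and 3248 (24.3%) had an unadjusted p under 0.05. Of the 72, 65 peaked at ZT4 to ZT8 and 3 at ZT16 to ZT20. INSIG1, a brake on sterol synthesis, had the smallest p: it was lowest from ZT6 to ZT12, at 7.09, 7.57, 7.94 and 9.97 FPKM, and highest at ZT20, at 25.3 FPKM (fitted peak over trough 3.13-fold, peak ZT19.8, adjusted p = 0.0260). FCN3, a ficolin of the lectin pathway, was fitted with 4.75-fold and a peak at ZT6.8, and HRCT1 with 9.19-fold at ZT6.0. The others of the top 10 were RSRP1, TLE1, HYAL2, ADCY4, HIST1H2AC, HNRNPDL and ATP10A, and of the listed genes the macrophage receptor CD163 passed (4.90-fold, ZT5.8). Without ZT12 and ZT18, or with the axis score as a covariate, 0 genes passed. All 12 called named genes lost the call without at least 1 single animal, INSIG1 without any 1 of 5.

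PER1, a light- and clock-driven repressor of the clock loop, was the 1 core clock gene of 19 called (5.32-fold, peak ZT1.8, adjusted p = 0.0492), a call lost under each other scaling of the libraries (adjusted p = 0.0671 to 0.0776). The call of PER1 was also lost when any 1 of 9 animals was left out (limma, adjusted p = 0.0672 to 0.146). With a pseudocount of 0.1, no filter or a filter of 5 FPKM it was lost as well (adjusted p = 0.0520 to 0.0753). In the pigment epithelium PER1 was highest at ZT0 and ZT2, at 15.9 and 25.0 FPKM, and lowest at ZT14, at 1.86 FPKM. A further group lay just above the threshold. ARNTL, the activator BMAL1, was at 4.72 FPKM at ZT0, 32.7 FPKM at ZT12 and 38.8 FPKM at ZT18 (4.27-fold, fitted peak ZT13.2, adjusted p = 0.0532), and both high values belong to the libraries with the most rod transcripts. NFIL3, a repressor of D-box genes, was fitted with its peak at ZT13.1 (adjusted p = 0.0532), PER2 at ZT2.3 (0.0526), PER3 at ZT22.6 (0.0519), DBP at ZT22.7 (0.0553) and NR1D1, the repressor REV-ERB alpha, at ZT20.3 (0.0617). NR1D1 was at 8.69, 8.18 and 8.37 FPKM from ZT6 to ZT10, below its other values, of which the lowest was 23.5 FPKM. Between ZT0-10 and ZT12-22 1 of 19 clock genes was higher at ZT0-10 (18.3% of all genes). Another, CLOCK, was lower (2.54% of all genes), by -0.46 ± 0.14 (limma, adjusted p = 0.0383). CLOCK was not called without ZT12 and ZT18 together (-0.30, adjusted p = 0.0900) or when any 1 of 9 animals was left out (adjusted p = 0.0522 to 0.0825).

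Levels of the clock genes differed between the tissues in both directions, 6 higher and 8 lower in the pigment epithelium of 19 tested (median -0.71). Of all genes 34.8% were higher, near the share here, and 22.5% lower. BHLHE40, a repressor of the loop, was at 22.6 to 61.1 FPKM in the pigment epithelium (median 43.5), against 5.93 to 12.1 FPKM in the retina (median 8.56). NPAS2 (1.24), TEF (1.71), PER1 (1.73) and NR1D1 (1.33) were also higher; NR1D1 came to 0.97, under 2-fold, without ZT12 and ZT18, and NPAS2 to 0.64 with quantile scaling. ARNTL was lower, at 4.72 to 38.8 FPKM in the pigment epithelium (median 13.2), against 46.7 to 77.8 FPKM in the retina (median 65) (-2.24 ± 0.22, adjusted p = 1.56e-07), with RORA (-2.27), BHLHE41 (-1.56), NFIL3 (-1.48), RORB (-1.41), CRY1 (-1.33), PER2 (-1.23) and NR1D2 (-1.03). ARNTL of the pigment epithelium spanned 4.72 to 38.8 FPKM over the 12 animals, against 46.7 to 77.8 FPKM in the retina; whether the time course differs between the tissues was not tested beyond ZT0-10 against ZT12-22, where the difference of effects was -0.63 ± 0.43 for ARNTL (adjusted p = 0.679).

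**Figure D5:**
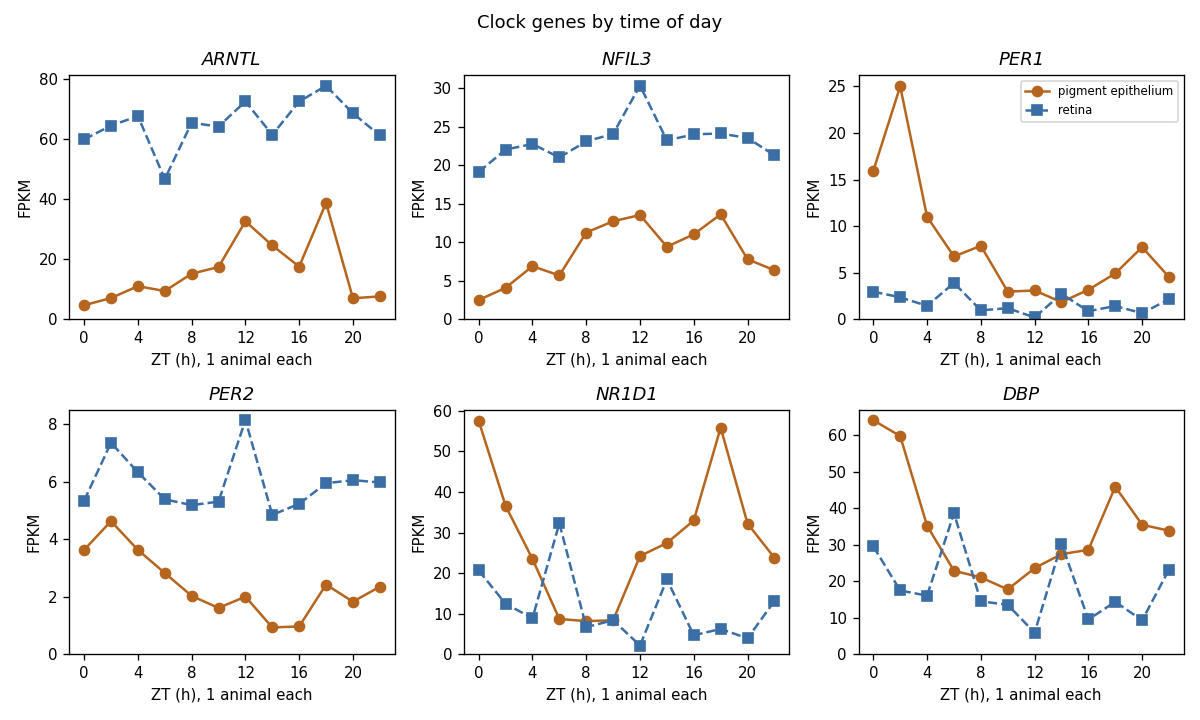
FPKM of 6 clock genes by ZT in the pigment epithelium (brown circles) and the retina (blue squares), 1 animal per point. PER1 of the pigment epithelium is highest at ZT0 and ZT2 (15.9 and 25.0 FPKM) and ARNTL at ZT12 and ZT18 (32.7 and 38.8 FPKM), while ARNTL of the retina stays at 46.7 to 77.8 FPKM.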

How the data were processed

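The deposited table gives FPKM for 29202 genes, 20432 of them with a symbol, in 767 libraries; STAR, featureCounts and DESeq2 are named in the submitters' processing notes, with no version or role; for the build, none is given in the sources used here. Columns were matched to samples by tissue and ZT, and 0 columns were left unmatched. Deposited FPKM values of 26545 of the 26546 genes above 0 came out as whole reads within 0.01 read, which gave the depths and a voom alternative. The 8770 entries without a symbol were tested but not named.

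Tests ran on log2(FPKM + 0.5) for genes averaging at least 1 FPKM, with limma 3.58.1 in R 4.3.3 (moderated test with a mean-variance trend, Benjamini-Hochberg adjustment over all genes tested) and Python 3.11.15 (numpy 2.4.6, pandas 2.3.3, scipy 1.17.1, matplotlib 3.10.9). The tissue comparison was paired by animal and also needed a 2-fold difference. ZT0-10 was set against ZT12-22 in each tissue, and the difference of the 2 effects was tested within animals. A 24 h cosine was fitted to the pigment epithelium.

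The pairing comes from the labels, 1 animal per time. In a check on 200 genes that differ between animals in the other tissues, 12 of 12 pigment epithelium and 12 of 12 retina libraries matched their own animal best. Deviations of the 2 tissues correlated over 0.1 in 8 of 12 animals (r = -0.224 to 0.303, median 0.181). Since each time is 1 animal, a time pattern shared by tissues would give the same match, so the check cannot by itself show the pairing.

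Gene lists (25) and members were chosen with earlier results of these data known. Named genes are the list members; the 10 called genes with the largest differences each way at 10 FPKM or more in the higher tissue; the 10 with the smallest p at 5 FPKM or more in the time tests; and the 5 with the smallest p in the difference between tissues. Each fit was first checked on simulated tables with known changes. Genes there were drawn independently around a mean shared by both tissues, with a fixed dispersion of 0.1. These tables held no animal effect and no library axis, so the rates below may not hold for the measured data. At 2-fold, 67 of 200 changed genes were recovered between tissues, where the call itself needed an estimate of at least 2-fold. Between ZT0-10 and ZT12-22 it was 66 of 200 in the pigment epithelium and 60 of 199 in the retina. The difference between tissues recovered 0 of 200 and the cosine 1 of 199, so in the simulated tables these fits missed most changes of that size. At 4-fold the last 2 recovered 158 of 200 and 157 of 199, and the others at least 99%. Alternatives were pseudocounts of 0.1 and 1, no filter and one of 5 FPKM, other scalings, voom, covariates, no pairing and leaving out animals; leaving out ZT12 and ZT18 together, and the axis score as a covariate, were added after seeing the data. List symbols with no match in the table were not analysed here, sequences were not used, and some genes are not reported here.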

Additional observations from a re-analysis of the deposited data

Results flagged for a closer look

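Among 102 groups of 6 pigment epithelium libraries, 4 had a library far from the others, where chance gives 5.1 at a level of 0.05. The groups were ZT0-10 and ZT12-22 for depth, axis score, visual cycle genes and clock genes. They also took in the genes with the smallest p in the time tests of this tissue, among them INSIG1. The other gene lists were not screened. RLBP1, the 11-cis retinal binding protein, was at 608 FPKM in the pigment epithelium of ZT2, against 1200 to 1728 FPKM in the other 5 libraries of ZT0-10. The axis score of the same library was 0.779, with the others at 0.183 to 0.353. INSIG1, the brake on sterol synthesis, was at 9.97 FPKM at ZT12, with the other 5 of ZT12-22 at 18.7 to 25.3 FPKM. Reads assigned were 6.36 M at ZT16, with the others at 9.68 to 11.5 M.

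In the test within animals of the pigment epithelium minus retina difference, 7 named genes had a larger ZT0-10 minus ZT12-22 value in the pigment epithelium, all with an adjusted p of 0.0353 by limma. The differences in log2 units were 2.27 for the connexin GJA4, 2.45 for EGFL7, 2.19 for HRCT1, 2.21 for the lactate exporter SLC16A8, 2.28 for the scaffold SLC9A3R2, 1.83 for complement factor D (CFD) and 2.43 for the transcription factor KLF2. All 7 were higher at ZT0-10 in the pigment epithelium, and none passed 0.463 FPKM in any retina library, too low for a time effect there to be seen, so a difference between the tissues is not shown. Each call was lost without at least 7 single animals.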

How the results depend on the processing

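No direction of a called named gene was reversed under the alternatives run. Pigment epithelium minus retina gave 7685 genes; a filter of 5 FPKM left 4806 of 8909 tested, and the other settings gave 7147 to 8602, with 7548 to 7844 when single animals were left out. Without the pairing (no replicate block) the count was 7689, of which 7682 were shared. Of 210 called named genes 194 kept the call throughout; 12 lost it without a single animal, among them PDE6G (adjusted p up to 0.0982) and DRD2 (up to 0.0807) by the test, and GLUL, LAMP2, MYO7A, PROS1, RBP4 and TYRO3 (0.90 to 1.00) and NR1D2, OTX2 and SPP1 (-0.99 to -0.95) by coming under 2-fold. With quantile scaling GLUL, MERTK, MYO7A, NPAS2, RBP4, TPCN2 and TYRO3 came to 0.36 to 0.94.

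ZT0-10 minus ZT12-22 in the pigment epithelium gave 2788 genes, 1964 to 3022 under other settings, 2073 to 2860 without single animals, and 0 with the axis score as a covariate. The share of higher calls was 87.8%, against 60.9% to 61.2% with the 3 other scalings, with a median of all genes of -0.07 in place of 0.06. Of 57 named genes 13 lost the call without at least 1 animal, among them TEK, PECAM1, CLCN2, CDH3, SLC9A3R1, PMEL, TPCN2, SERPING1, CD68, CSF1R, PRKCA and CLOCK (adjusted p = 0.0508 to 0.0965), and each of the 12 animals took at least 1 of these calls with it. With the first principal component of these libraries as a covariate 2946 genes passed, 1724 of them shared with the main fit. Among the named genes not called there were RDH5, STRA6, TIMP3, PTGDS, SLC16A3, CLDN19 and CD163 (limma, adjusted p = 0.0542 to 0.110). Counting the axis score as a covariate too, 0 of the 57 kept the call under every setting. In the retina quantile scaling gave 1 gene in place of 0.

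The difference between tissues gave 48 genes. It gave 0 with a pseudocount of 0.1, 91 with one of 1, 101 without a filter, 5 with a filter of 5 FPKM, 209 with quantile scaling, 24 with voom, 0 with the rod level as a covariate, 267 with the first component, 375 with the axis score and 0 without ZT12 and ZT18; leaving out single animals gave 0 to 51, with 51 without ZT12, 2 without ZT22 and 0 without each of the others.

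The cosine gave 72 genes. It gave 24 and 164 with pseudocounts of 0.1 and 1, 5 without a filter, 19 with a filter of 5 FPKM, 15 with median-of-ratios scaling, 3 with quantile scaling, 6 with voom, 6 with the first component, 0 with the axis score, and 0 without ZT12 and ZT18. Leaving out single animals gave 0 to 883, with 883 without ZT22, 331 without ZT0, 242 without ZT16 and at most 22 without each of the others. The cause of these shifts was not tested. With 1 animal per time, 3.84 to 13.0 M reads per library and FPKM values near 0 in the retina for many genes, a missing call between ZT0-10 and ZT12-22 does not show a constant level.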
